A study of Homo sapiens with 4 samples.

Results

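The genes described here are 9 markers of proliferating cells that act on mitotic chromosomes, on the spindle and in cytokinesis: MKI67 (ENSG00000148773), TOP2A (ENSG00000131747), TPX2 (ENSG00000088325), HMMR (ENSG00000072571), ASPM (ENSG00000066279), PRC1 (ENSG00000198901), ECT2 (ENSG00000114346), ANLN (ENSG00000011426) and BIRC5 (ENSG00000089685). They were chosen by symbol from the 20263 genes of the deposited count table after the difference between the 2 groups was known. Their own difference between the groups is therefore a description and not a test. All 9 had a row and passed the filter on low counts. RNA-seq libraries were made with an mRNA kit from MDA-MB-231, an established line of triple-negative breast cancer, grown in DMEM with serum and antibiotics. The groups are DMSO (2 libraries; a common solvent) and Neoribocic (2 libraries), a compound that the series title links to a block of the cell cycle. The treatment protocol gives 24 h with or without an agent it calls Rib_CA, read here as Neoribocic, and no dose was found. Whether the libraries of a group are separate cultures is not stated, so p-values reflect the spread among these 4 libraries of 1 line, which may be technical.

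Proliferating cells make most transcripts of this kind in G2 and mitosis, and resting cells make little of them. Ki-67, the product of MKI67, coats mitotic chromosomes, and topoisomerase II alpha, from TOP2A, untangles their DNA. TPX2, HMMR and ASPM act on spindle microtubules and spindle poles, while PRC1, ECT2, anillin (ANLN) and survivin (BIRC5) act in the central spindle and the cleavage furrow. In the promoters of such genes, the cell cycle genes homology region (CHR, usually TTTGAA) is known to bind the MuvB core shared by the DREAM and MYB-MuvB complexes, and the CCAAT box is known to bind NF-Y.

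Promoter sequences are shown because 8 of the 9 genes were lower with Neoribocic and CHR and CCAAT elements are the known shared elements of G2/M promoters. RefSeq windows of 300 bases (250 before the start and 50 from it, build GRCh38.p14) were at hand for 7 of the 9 genes. None was at hand for TPX2 or BIRC5, so all 7 genes searched are among the 8 that were lower. Both strands were searched for TTTGAA, its variant TTCGAA, and CCAAT, and capitals mark the matches (TTCAAA and ATTGG are matches on the opposite strand). Each line runs 5′ to 3′ on the strand of the gene and ends at the base before the start, in the order chr10:128126424-128126527 (minus strand), chr17:40417897-40418096 (minus), chr5:163460449-163460631 (plus), chr1:197146670-197146809 (minus), chr15:90994536-90994595 (minus), chr3:172750605-172750725 (plus) and chr7:36389802-36389861 (plus).
MKI67: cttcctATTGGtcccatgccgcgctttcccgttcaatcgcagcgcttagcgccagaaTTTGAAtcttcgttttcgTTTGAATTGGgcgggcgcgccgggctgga
TOP2A: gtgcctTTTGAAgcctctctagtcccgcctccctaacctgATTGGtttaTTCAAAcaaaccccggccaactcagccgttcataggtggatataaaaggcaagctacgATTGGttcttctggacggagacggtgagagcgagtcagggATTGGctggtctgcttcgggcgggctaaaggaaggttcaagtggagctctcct
HMMR: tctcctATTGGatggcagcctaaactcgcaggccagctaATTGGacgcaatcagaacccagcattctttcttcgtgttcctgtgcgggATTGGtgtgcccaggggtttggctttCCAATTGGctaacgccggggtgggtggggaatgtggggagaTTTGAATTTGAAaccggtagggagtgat
ASPM: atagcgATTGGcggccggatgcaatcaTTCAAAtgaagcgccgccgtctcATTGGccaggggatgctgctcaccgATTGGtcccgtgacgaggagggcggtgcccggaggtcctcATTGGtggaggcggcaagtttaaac
PRC1: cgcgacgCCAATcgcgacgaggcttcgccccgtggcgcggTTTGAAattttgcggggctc
ECT2: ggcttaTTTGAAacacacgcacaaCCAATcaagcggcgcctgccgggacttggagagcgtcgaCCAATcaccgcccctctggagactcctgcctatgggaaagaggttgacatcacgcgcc
ANLN: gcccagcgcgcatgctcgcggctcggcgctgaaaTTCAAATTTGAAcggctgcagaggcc

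TTTGAA was present in all 8 windows of the 7 genes, against 5324 of 35116 RefSeq promoter windows of the same length (15.2%). TTCGAA was present in none of the 8. Both TTTGAA and CCAAT are known from promoters of this kind of gene, so their shares are a description and not a test. CCAAT was present in 6 of the 8 windows of the 7 genes (75.0%), against 34.6% of all windows. It was absent from the ANLN window and from the second of the 2 ECT2 windows. Counted from the start, the first base of a TTTGAA match lay at -47 and -29 in MKI67, at -28 and -22 in HMMR, at -26 and -20 in ANLN and at -20 in PRC1. In these 4 genes the element lay within 50 bases before the start. In ASPM the match was at -113, in ECT2 at -115 with another at 35 inside the transcript, and in TOP2A at -194 and -151. The second ECT2 window, which overlaps the first, held TTTGAA at -242 and -182 from its own start. The TTTGAA match at -29 of MKI67 overlaps a CCAAT match by its last base, and the HMMR window held 5 CCAAT matches, of which the last pair overlap. Among lists of other genes described below, TTTGAA was found in 16 of 35 windows of spindle assembly genes (45.7%), 8 of 48 of midzone and abscission genes (16.7%) and 2 of 8 of passenger complex genes (25.0%). A match is a run of letters and was not tested for binding.

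With Neoribocic 8 of the 9 genes lay lower in both libraries than in either DMSO library, and BIRC5 did not. The same 8 passed edgeR's quasi-likelihood test at an adjusted p below 0.05, and none was higher. Among all 13879 genes tested, 21.3% were called lower and 19.1% higher, and in 37.3% both Neoribocic libraries lay below both DMSO libraries. Because the 9 were chosen from this comparison, nothing is read from their count against those shares. The median log2 fold change (Neoribocic minus DMSO) of the 9 was -1.54, against 0.01 over all genes tested. Summed over the 9 genes, the level was 4180 and 3840 CPM in DMSO replicates 1 and 2 and 695 and 741 CPM in Neoribocic replicates 1 and 2. CPM are counts scaled to library size, with TMM factors. In bulk RNA, fewer cells that make a transcript and less of it per cell cannot be told apart.

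**Figure D1:**
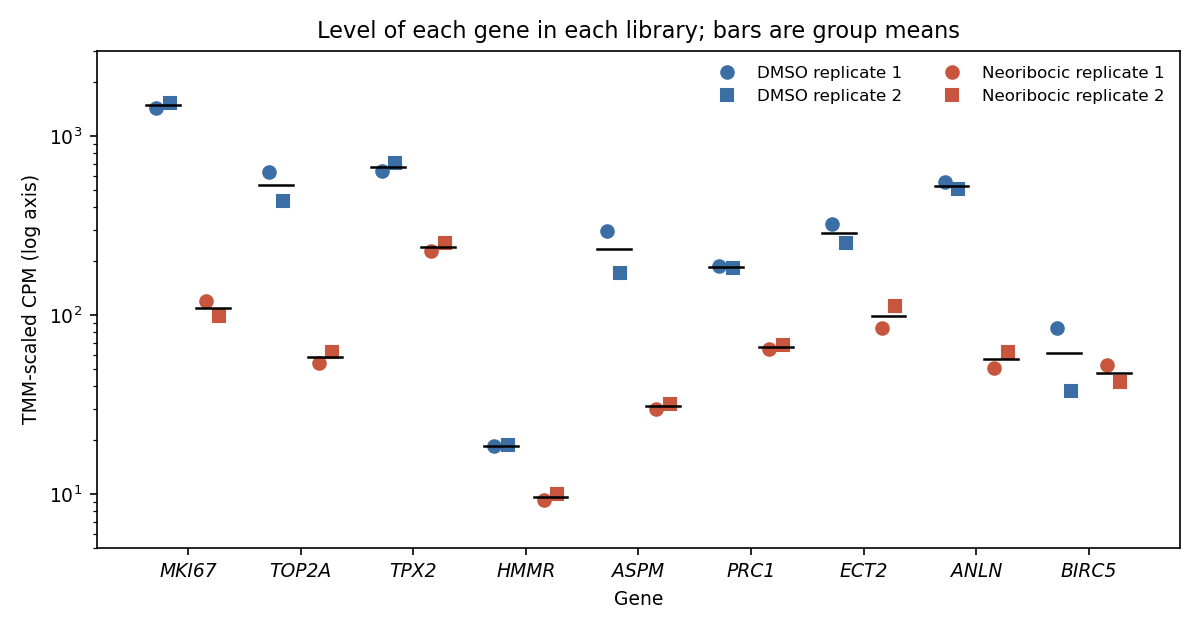
Level of the 9 genes in each library, as TMM-scaled CPM on a log axis; blue points are DMSO, red points Neoribocic, circles replicate 1, squares replicate 2 and black bars group means. The red points lie below the blue ones for 8 genes, whereas for BIRC5 the DMSO libraries, at 84.7 and 37.5 CPM, lie on either side of the Neoribocic libraries.

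The chromosome genes were among the furthest apart. MKI67 stood at 1445 and 1524 CPM in DMSO replicates 1 and 2 and at 120.4 and 98.6 CPM in Neoribocic replicates 1 and 2. Its groups were far from overlapping, with a log2 fold change of -3.76 ± 0.22 (SE), a 13.6-fold lower level, and ranked 40 from the most negative of the 13879 genes. In DMSO it made up 34.6% and 39.7% of the summed CPM of the 9 genes, and with Neoribocic 17.3% and 13.3%. These shares are of counts not scaled to length, which weighs a long transcript such as that of MKI67 (12.7 kb) more. TOP2A, the target of several anticancer drugs, stood at 633 and 436 CPM in DMSO and at 53.7 and 62.5 CPM with Neoribocic. DMSO replicate 1 was the higher of its controls, and both were well above the treated libraries (log2 fold change -3.20 ± 0.25, 9.20-fold lower).

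The 3 spindle genes differed from each other in size of change and in level. TPX2, which activates Aurora A and starts microtubule growth around chromosomes, was at 642 and 708 CPM in DMSO and 229 and 252 CPM with Neoribocic (log2 fold change -1.49 ± 0.19). Its treated level was thus 35.6% of its control level. HMMR, which encodes a hyaluronan receptor that also binds spindle microtubules, was at 18.4 and 18.8 CPM in DMSO and 9.23 and 9.98 CPM with Neoribocic (-0.95 ± 0.23). It had the lowest counts of the 9, from 392 to 654 per library, and its replicates lay close together in both groups. HMMR did not pass the threshold without Neoribocic replicate 1 (adjusted p = 0.0771 in edgeR) or with library totals (0.0535). ASPM, a spindle pole protein whose loss causes microcephaly, was at 294 and 172 CPM in DMSO and 30.0 and 31.7 CPM with Neoribocic (-2.92 ± 0.28). Replicate 2 minus replicate 1 was -0.78 on the log2 scale in DMSO and 0.08 with Neoribocic.

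The cytokinesis genes covered a wide range. ANLN, the scaffold that links actin, myosin and septins in the contractile ring, was at 552 and 507 CPM in DMSO and 50.5 and 62.4 CPM with Neoribocic, a log2 fold change of -3.23 ± 0.21. ECT2, the exchange factor that activates RhoA at the cleavage furrow, was at 322 and 253 CPM in DMSO and 84.6 and 112.8 CPM with Neoribocic (-1.54 ± 0.23). PRC1, which crosslinks antiparallel microtubules of the central spindle, was at 188 and 183 CPM in DMSO and 64.9 and 68.5 CPM with Neoribocic (-1.48 ± 0.19). In GENCODE 29, 57.6% of the exon bases of PRC1 also belong to another gene model on its strand, AC068831.7, and 7.35% to PRC1-AS1 on the other strand, so its reads may have been divided or left out in counting. The treated mean was 10.7% of the control mean for ANLN, 34.3% for ECT2 and 35.9% for PRC1, and the groups of these 3 genes did not overlap.

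BIRC5, whose product survivin brings the chromosomal passenger complex to centromeres and midzone and belongs to the inhibitor of apoptosis family, did not separate the groups. It stood at 84.7 and 37.5 CPM in DMSO and at 52.7 and 42.5 CPM with Neoribocic, with a log2 fold change of -0.36 ± 0.38. DMSO replicate 1 was above both treated libraries and DMSO replicate 2 below both. Without DMSO replicate 1 the value was 0.34, and without DMSO replicate 2 it was -0.82. Its difference between the DMSO libraries, -1.18 (replicate 2 minus replicate 1, log2), was larger than that of any other of the 9 genes. Mitochondrial genes took 21.7% of the counts of DMSO replicate 2, against 5.76% to 8.68% in the other 3 libraries. With these genes removed before scaling BIRC5 stood at -0.35. That step rescales whole libraries and says nothing on why the DMSO libraries differed in BIRC5, which was not tested.

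Within the groups, 6 of the 9 genes were lower in DMSO replicate 2 than in replicate 1, the exceptions being MKI67, TPX2 and HMMR at 0.08, 0.14 and 0.02 on the log2 scale. With Neoribocic 7 of the 9 were higher in replicate 2 than in replicate 1, by 0.08 to 0.41. MKI67 and BIRC5 were the exceptions at -0.29 and -0.31. These 2 have the highest GC contents of the 9 transcripts, 48.3% and 51.7%, against 36.1% to 46.5% for the others. In DMSO the same 2 genes went opposite ways, at 0.08 and -1.18, and a link with GC content was not tested.

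Per kilobase of transcript, the scale used here to order the levels of different genes, TPX2 was highest in both groups. In DMSO the order was TPX2 at 193 CPM per kb, MKI67 at 117, ANLN at 111, TOP2A at 92.9, ECT2 at 65.3, PRC1 at 61.2, BIRC5 at 23.2, ASPM at 21.4 and HMMR at 6.22. The replicates of MKI67 and ANLN, of ANLN and TOP2A, of ECT2 and PRC1 and of BIRC5 and ASPM overlapped. Within each DMSO library ANLN still lay above TOP2A (115.3 against 109.9 and 105.9 against 75.8 CPM per kb). The other overlapping neighbours changed order between the DMSO libraries. With Neoribocic the order was TPX2 at 68.7 CPM per kb, ECT2 at 22.4, PRC1 at 21.97, BIRC5 at 18.1, ANLN at 11.8, TOP2A at 10.1, MKI67 at 8.64, HMMR at 3.215 and ASPM at 2.83. Here the replicates of ECT2 and PRC1, of ANLN and TOP2A and of TOP2A and MKI67 overlapped. ANLN again lay above TOP2A within each Neoribocic library (10.56 against 9.33 and 13.03 against 10.85 CPM per kb). MKI67 thus moved from the second place to the seventh, and ECT2, PRC1 and BIRC5 came to lie above ANLN, TOP2A and MKI67 in both treated libraries. The ratio of TPX2 to MKI67 per kb was 1.61 and 1.69 in the DMSO libraries and 6.89 and 9.26 in the Neoribocic libraries. With the union of all exons as the length, which is longest relative to the principal transcript for PRC1, the DMSO levels of PRC1 and ECT2 were 33.6 and 52.3 CPM per kb. BIRC5 was then at 16.02 CPM per kb, below ASPM at 21.4.

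**Figure D2:**
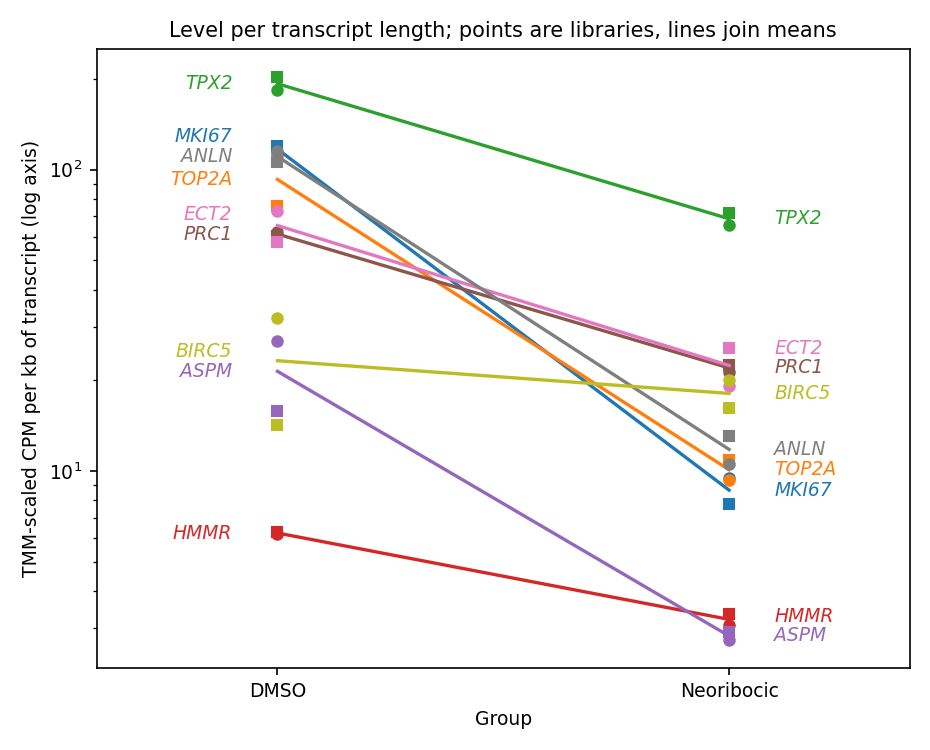
TMM-scaled CPM per kb of transcript on a log axis in DMSO (left) and Neoribocic (right); circles are replicate 1, squares replicate 2, and each line joins the means of 1 gene. The lines of MKI67, ANLN and TOP2A, which start at 117, 111 and 92.9, cross those of ECT2 and PRC1, while TPX2 stays highest at 193 and 68.7.

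The 9 transcripts span 2.63 kb (BIRC5) to 12.7 kb (MKI67), and the 4 longest, MKI67, ASPM (10.9 kb), TOP2A (5.76 kb) and ANLN (4.79 kb), were the 4 with the largest decreases. ECT2, next in length at 4.41 kb, was at -1.54, and TPX2 (3.50 kb), PRC1 (3.03 kb), HMMR (2.99 kb) and BIRC5 lay between -1.49 and -0.36. Long transcripts tended to be lower with Neoribocic across the whole table, and so did transcripts of low GC content. Over 13862 genes, the Spearman correlation of log2 fold change was -0.40 with length and 0.45 with GC content. The correction below takes both together. In 10 equal groups of 13862 genes by length, the median log2 fold change was 0.73 in the shortest, 0.10 in the group that holds HMMR, PRC1 and BIRC5, -0.08 in that of TPX2, -0.26 in that of ECT2 and ANLN, -0.46 in that of TOP2A and -0.71 in that of MKI67 and ASPM. ANLN and ECT2 share a length group and stood at -3.23 and -1.54. PRC1 and HMMR, of nearly equal length, stood at -1.48 and -0.95.

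Differences between libraries in a smooth trend on transcript length and GC content were then removed. With this correction MKI67 was at -2.93 ± 0.20, ANLN at -2.58 ± 0.14, TOP2A at -2.43 ± 0.16 and ASPM at -1.86 ± 0.21. These were again the 4 lowest of the 9. PRC1 was at -1.25 ± 0.13, TPX2 at -1.21 ± 0.14, ECT2 at -0.92 ± 0.14, HMMR at -0.59 ± 0.18 and BIRC5 at -0.57 ± 0.46. The correction moved ASPM and MKI67 toward 0 by 1.06 and 0.83 and PRC1 by 0.23, and it moved BIRC5 away from 0 by 0.21. The log2 values of ECT2, HMMR and ASPM shrank by more than 1.5 times, and ECT2 dropped behind PRC1 and TPX2. With the correction 19.3% of all genes tested were called lower, and 8 of the 9 genes passed, all but BIRC5.

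**Figure D3:**
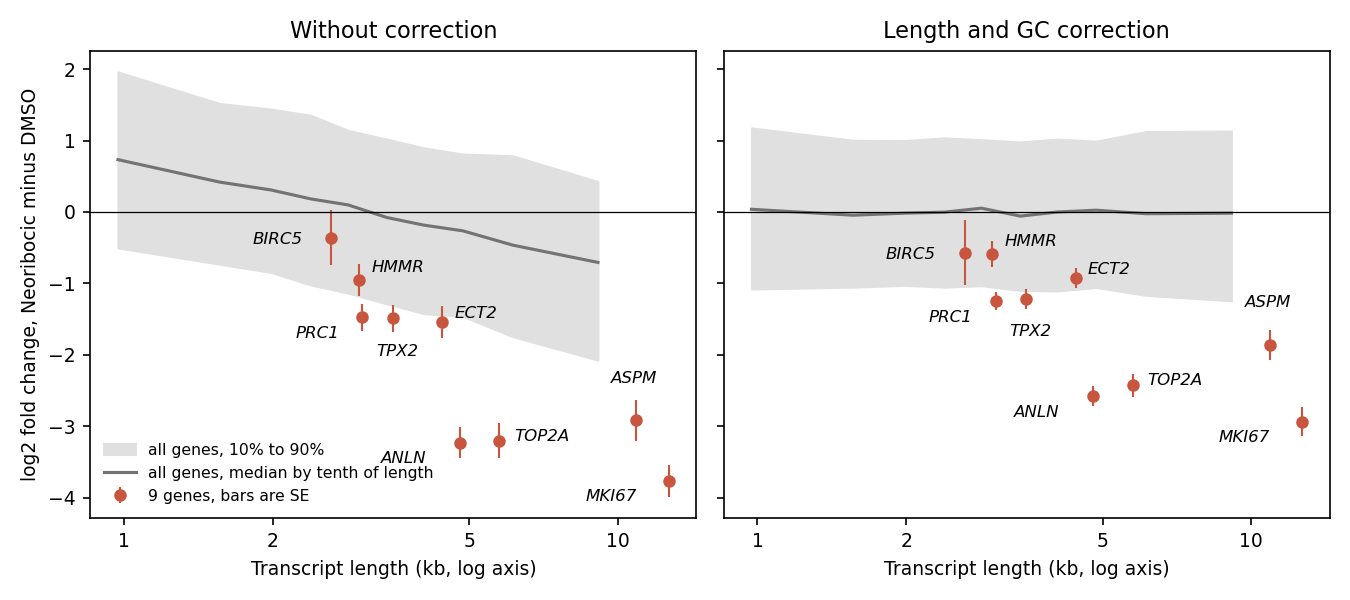
Log2 fold change (Neoribocic minus DMSO) against transcript length in kb on a log axis, without (left) and with (right) the length and GC correction; red points are the 9 genes with SE bars, the grey line is the median and the grey band the 10% to 90% range of all genes in 10 groups by length. The grey line falls from 0.73 to -0.71 on the left and is nearly level on the right, where MKI67, ANLN, TOP2A and ASPM are the lowest points and PRC1 and TPX2 lie near the lower edge of the band.

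Genes that act with these 9 were counted from lists of known function that exclude them. The shares to set beside each count are those of all 13879 genes tested, 21.3% called lower and 19.1% higher. With the correction 19.3% of all genes were called lower. Of 34 genes of spindle assembly and poles, 21 fell and 3 rose in edgeR's quasi-likelihood test, 10 did not pass, and the median log2 fold change was -1.07. Those with the smallest p that fell were CKAP5, DLGAP5, KIF11 and KPNB1. CKAP5, a microtubule polymerase, was at -2.62 ± 0.20 (edgeR adjusted p = 4.94e-04) and DLGAP5, which stabilises kinetochore fibres, at -2.38 ± 0.26 (7.94e-04). KIF11, the motor that separates spindle poles, was at -1.80 ± 0.22 (9.87e-04) and KPNB1, an importin, at -1.52 ± 0.19 (0.00115). The correction brought KIF11 to -1.13 and KPNB1 to -0.95. Among those that rose were HAUS4 (0.81) and HAUS7 (0.80), subunits of augmin. All 3 higher calls were lost with the correction, where HAUS4 stood at 0.41 and HAUS7 at -0.0089 (edgeR adjusted p = 0.171 and 0.976). Without DMSO replicate 2 or without Neoribocic replicate 1, 0 genes of the list were called higher. HAUS4 also did not pass without Neoribocic replicate 2, nor HAUS7 in the other 2 leave-one-out fits, without a count filter, with the block on replicate number, with DESeq2 or with limma-voom. Of the exon bases of HAUS4 and HAUS7 34.1% and 35.6% overlap another gene on the same strand. With the correction 19 of the 34 were lower and 1 was higher, HAUS2 at 1.11, which had stood at 0.59 without it, and 5 were higher with upper-quartile factors. HAUS2 was named here after its value was seen.

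Of 32 genes of the midzone, contractile ring and abscission, 17 fell and 3 rose, with a median of -1.18. With the correction the counts were again 17 and 3, at a median of -0.77, but not of the same genes. VPS4B (0.46) took the place of CHMP4B among the higher genes. PLK1 (-0.80, edgeR adjusted p = 0.0112) and SEPTIN9 (-0.76, 0.0219) were newly lower. SEPTIN11 (adjusted p = 0.0745) and PKN2 (0.161) lost their lower calls. VPS4B, PLK1, SEPTIN9, SEPTIN11 and PKN2 were named after their values were seen. KIF20B, a midzone kinesin, was at 142 and 105 CPM in DMSO and 11.1 and 16.9 CPM with Neoribocic, a log2 fold change of -3.15 ± 0.29 (edgeR adjusted p = 5.74e-04). DIAPH3, a formin that nucleates actin (-2.81 ± 0.24), KIF20A, the motor that carries the passenger complex to the midzone (-2.04 ± 0.19), and PDCD6IP (ALIX), an abscission adaptor (-1.92 ± 0.19, corrected -1.15), also fell. The genes that rose were MYL12A, a myosin regulatory light chain (1.32 ± 0.18, adjusted p = 0.00153), and the abscission genes CHMP4B (0.77 ± 0.20, 0.0175) and CHMP4C (0.74 ± 0.24, 0.0377). Reads of MYL12A and its near-identical neighbour MYL12B can be divided between them. CHMP4B lost its call with the correction (0.29) and without DMSO replicate 1 or Neoribocic replicate 1, and CHMP4C in each of the 4 leave-one-out fits and with the replicate block (adjusted p = 0.058). The higher calls numbered 1 without DMSO replicate 1 or Neoribocic replicate 1 and 5 with upper-quartile factors or library totals.

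Of the chromosomal passenger complex, with which survivin works, 1 other subunit passed the test. AURKB, the kinase of the complex, was at 56.2 and 68.9 CPM in DMSO and 77.2 and 64.1 CPM with Neoribocic, with overlapping groups and a log2 fold change of 0.18 ± 0.22 (edgeR adjusted p = 0.540). With the correction AURKB stood at -0.56 with an adjusted p of 0.0254. CDCA8 (borealin) was at 0.27 ± 0.20 (0.301). INCENP, the scaffold subunit, fell (-0.58 ± 0.19, 0.0383), a call that none of the 4 leave-one-out fits kept and that 3 other settings also lost (upper-quartile factors, library totals and the replicate block). With the correction INCENP stood at -0.92 with an adjusted p of 0.00576. Of the recruiters, the shugoshin genes SGO2 (-2.18 ± 0.29) and SGO1 (-1.35 ± 0.24) and the kinase gene BUB1 (-1.84 ± 0.21) fell, and HASPIN was at -0.21 ± 0.21. In all, 4 of the 7 genes fell and 0 rose, or 5 and 0 with the correction. The ratio of BIRC5 to AURKB per kb was 0.703 and 0.254 in the DMSO libraries and 0.318 and 0.309 in the Neoribocic libraries.

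TOP2B, the form of topoisomerase II that resting cells also make, was at 237 and 149 CPM in DMSO and 37.7 and 51.4 CPM with Neoribocic, a log2 fold change of -2.11 ± 0.28 (edgeR adjusted p = 0.00154, and -1.38 with the correction). Per kb, TOP2A exceeded TOP2B 2.50- and 2.75-fold in the DMSO libraries and 1.33- and 1.14-fold in the Neoribocic libraries. Of the 7 topoisomerases and tyrosyl-DNA phosphodiesterases tested, TOP2B was the 1 called, not above the share of all genes called lower (21.3%). With the correction it was joined by TOP1MT (-1.13, adjusted p = 0.00831 in edgeR), named after its value was seen. The meiotic SPO11 did not pass the count filter. Of 10 partners of Ki-67, 4 fell and 0 rose, with a median of -0.56, and with the correction 5 were lower and 1 was higher, with a median of -0.52. They were the kinesin KIF15, which binds Ki-67 (-2.13 ± 0.26, edgeR adjusted p = 0.00103), the nucleolar chaperone NPM1 (-1.003 ± 0.19, 0.00487), CDCA2, which brings a phosphatase to chromosomes (-0.91 ± 0.23, 0.0161), and the phosphatase subunit PPP1CC (-0.999 ± 0.26, 0.0165). NPM1 has many processed copies in the genome, so its reads can be divided. CDCA2 and PPP1CC lost their calls without DMSO replicate 1 or Neoribocic replicate 1, where the count was 2 of 10, and PPP1CC also without Neoribocic replicate 2. CDCA2 did not pass with library totals either (adjusted p = 0.0686, 3 of 10), and the correction brought it to -0.54. Named after their values were seen, CBX5 turned from -0.31 to 0.67 with the correction (edgeR adjusted p = 0.0325) and PPP1CA from 0.24 to -0.53 (0.047). NIFK, which binds the Ki-67 forkhead-associated domain, was at -0.59 ± 0.30 (adjusted p = 0.146).

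Among regulators of G2/M promoters, 9 of 18 fell and 1 rose, with a median of -0.45. FOXM1, a transcription factor of G2/M genes, was at 138 and 158 CPM in DMSO and 73.6 and 75.5 CPM with Neoribocic (-0.99 ± 0.19, edgeR adjusted p = 0.00496), with 15.9% of its exon bases overlapped on the other strand. MYBL2 (B-MYB), the MuvB partner that activates these promoters, fell (-0.87 ± 0.25, 0.0267), but did not pass when DMSO replicate 2 or either Neoribocic library was dropped, and with the correction it stood at -1.33 (adjusted p = 0.00712). The repressor E2F8 fell (-1.75 ± 0.22), as did the pocket protein genes RBL1 and RBL2, which join the repressive DREAM complex (-1.27 ± 0.20 and -1.02 ± 0.22, corrected -0.53 and -0.47). RBL2 did not pass without Neoribocic replicate 1 (adjusted p = 0.062), and neither RBL1 nor RBL2 passed with the correction plus the replicate block (0.0662 and 0.0638). LIN37, a DREAM subunit, rose by 1.504 ± 0.26 (corrected 0.66, edgeR adjusted p = 0.0496). Of its exon bases 26.7% overlap another gene on the same strand and 41.8% are overlapped on the other strand. With a library left out, fewer of the 18 passed as lower. With the correction 7 were lower and 3 higher, the added higher genes being E2F7 (0.54) and NFYA (0.61). E2F4 was newly lower (-0.11 without and -0.66 with the correction, edgeR adjusted p = 0.0156). LIN9 (adjusted p = 0.0544), LIN54 (0.286) and RBBP4 (0.37) lost their lower calls with the correction. E2F7, NFYA, E2F4, LIN9, LIN54 and RBBP4 were named after their values were seen. Inhibitor of apoptosis genes, the family of survivin, were counted here and below together with antagonists of that family. Of the 8 genes of this list tested, 2 fell and 1 rose, near the shares of all genes called lower (21.3%) and higher (19.1%). The median of the list was -0.24. With the correction 1 was lower and 2 were higher, with a median of 0.20. The 2, named after their values were seen, were XIAP (0.45 without and 1.36 with the correction, edgeR adjusted p = 0.00488) and BIRC3 (-0.09 and 0.56, 0.0374). BIRC6, which encodes a giant ubiquitin ligase, fell (-1.71 ± 0.24, corrected -0.64), XAF1, an antagonist of XIAP, fell from 2.03 and 2.93 CPM in DMSO (-1.13 ± 0.38), and HTRA2, a mitochondrial protease, rose by 0.78 ± 0.27. The XAF1 and HTRA2 calls were lost with the correction (-0.70 and 0.23) and in 3 of the 4 fits that left out a library, XAF1 also with upper-quartile factors, library totals and DESeq2 and HTRA2 with limma-voom, and 38.3% and 36.9% of their exon bases overlap a gene on the other strand.

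**Figure D4:**
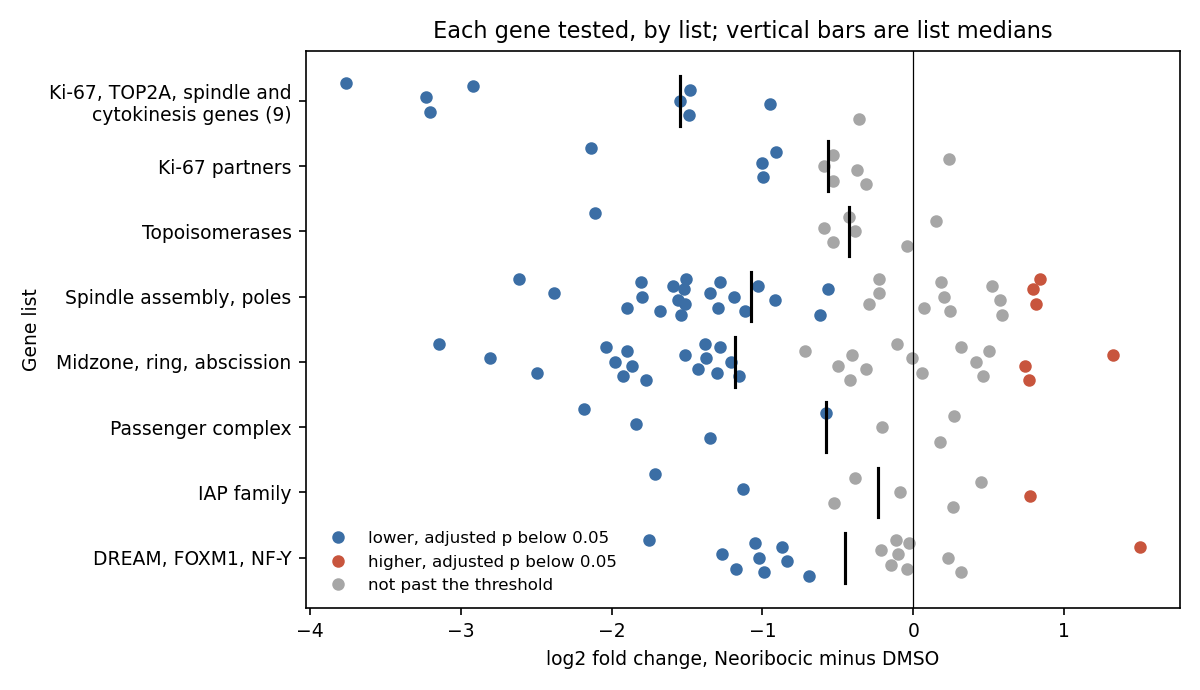
Log2 fold change (Neoribocic minus DMSO) of every gene tested in each list, the 9 genes in the top row; blue points were called lower and red points higher at an edgeR adjusted p below 0.05, grey points were not called, and vertical bars are list medians. The medians of the spindle and midzone lists lie at -1.07 and -1.18, and the top row reaches from -3.76 to -0.36.

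The 5 other genes closest to the mean profile of the 9, measured as the Euclidean distance between centred log2 CPM over the 4 libraries, were RAVER2 (0.02), ANK3 (0.07), DHX15 (0.09), MDN1 (0.10) and ANKHD1-EIF4EBP3 (0.11). RAVER2 was at 28.9 and 23.6 CPM in DMSO and 6.003 and 6.32 CPM with Neoribocic, a log2 fold change of -2.09. Of the 9 genes, ECT2 was closest to their own mean, at 0.59, and BIRC5 furthest, at 1.95. With only 4 libraries a small distance says little beyond a like log2 fold change (-2.09 to -2.18 for the 5 genes).

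Library totals ran from 34774542 to 43014212 counts. Of the markers of the line, 6 of 6 were present in every library, with a summed level of 5481 to 7848 CPM led by VIM. Of 7 markers of luminal breast lines the sum was 318 to 521 CPM, nearly all of it KRT8, while CDH1 and ESR1 did not exceed 0.141 and 0.649 CPM. Of 8 blood, endothelial and stromal markers the sum was 9.58 to 12.8 CPM, led by COL1A1, and CD3E was at 0 in all libraries.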

How the data were processed

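The deposited table holds raw counts per Ensembl gene, 1 column per library; the values are whole numbers with no normalization. Aligner, counter, strand setting and human build: not given in the sources used here. Per the submitters' processing notes the builds were GRCm38 and mm10, of mouse, while the IDs are of human genes. Of 20263 IDs, 20148 had a symbol in the table of gene names used. Small counts were mostly even (62.3% to 65.4% of counts below 20), but counts of 20 to 200 were not (50.3% to 51.3%). The cause was not tested.

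Tests used edgeR 4.0.16 in R 4.3.3: filterByExpr by group, TMM, a robust quasi-likelihood fit with group as the only term, and Benjamini-Hochberg adjustment over all 13879 genes tested, at a threshold of 0.05. The SE is the log2 fold change divided by the square root of F. Transcript length and GC were taken from GENCODE 29, with 1 principal or longest transcript for each gene. Profile distances used log2 CPM with a prior count of 3. The correction fits a smooth surface on length and GC (mgcv 1.9.3) to log2 CPM in each library. The part of the surface that differs between libraries enters the edgeR fit of the counts as an offset for each gene. Both fits were tested on simulated data with planted changes and a planted length trend. No GC trend was planted, so the GC part of the correction was not tested.

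Named genes are the 9, all of the passenger list, TOP2B, NIFK, FOXM1 and MYBL2, up to 4 per direction with the smallest p in each other list, and the 5 nearest profiles with a symbol and at least 5 CPM. Some items under this rule are not reported here. The 9 genes, the lists and the alternatives (RLE, upper-quartile factors, library totals, 2 count filters, DESeq2 1.42.0, limma-voom 3.58.1, replicate block, correction, halved counts, no mitochondrial genes, each library left out) were chosen with earlier results of these data known.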

Additional observations from a re-analysis of the deposited data

How the results depend on the processing

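Of the 9 genes, 8 were called lower under 13 of 16 alternatives and 7 with library totals, with the correction plus the replicate block, and without Neoribocic replicate 1, HMMR being lost each time (adjusted p = 0.0535, 0.0641 and 0.0771). The replicate block alone gave 8 calls and a median log2 fold change of -1.55. Same-numbered libraries deviated with a correlation of -0.05, and nothing in the labels pairs them. The median was -1.25 with the correction, with or without the block. Leaving out each library gave 7 to 8 calls and medians from -1.76 to -1.43. BIRC5 ranged from -0.82 to 0.34, turning positive without DMSO replicate 1. AURKB turned to -0.56 with the correction in both fits, and HAUS7 to -0.0089, or -0.0066 with the block.

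All genes called numbered 5610, and 2468 to 4536 with a library left out, the lowest without Neoribocic replicate 1. Those fits gave 2 to 5 Ki-67 partners, 3 to 7 promoter regulators and 1 to 2 inhibitor of apoptosis genes called lower. Topoisomerases called lower were 2 with the correction, with or without the block, and with DESeq2. Inhibitor of apoptosis genes called lower were 1 with upper-quartile factors, library totals, both corrections and DESeq2. Promoter regulators were 5 with the correction plus the block. With union exon lengths the DMSO levels of HMMR, PRC1, ECT2, ANLN and BIRC5 were 4.725, 33.6, 52.3, 88.1 and 16.02 CPM per kb. Upper-quartile factors and library totals moved the median of all genes by 0.12 and 0.17, and the higher share of calls was 47.2% with TMM and 56.8% and 59.6% with these. The cause of these changes was not tested.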
